A study of Mus musculus with 30 samples.

Results

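Freshly purified B cells of the mouse spleen were compared with freshly purified CD8 T cells of the spleen, over all 746 probe sets of a custom array that are not beta-actin or Gapdh controls. The comparison uses 6 of the series' 30 arrays, chosen by their titles: 3 arrays of fresh B cells, with title letters G, E and K, and 3 arrays of fresh CD8 cells, with letters A, B and C. Every cell came from the spleens of male C57Bl/6 mice 6 to 10 weeks of age, with no genetic change, transgene or treatment named, and neither of these groups had been in culture. The rest of the series is fresh CD4 cells, CD4 and CD8 cells cultured with IL-2 (4 ng/ml) alone, with added IL-4 (10 ng/ml) or with added IL-12 (5 ng/ml), and B cells cultured with IL-4 at the same dose and anti-IgM (10 ug/ml), each on 3 arrays. The text that goes with the CD8 arrays names B cells beside CD8 cells, so the cell type was taken from the title of each array and then set against marker genes. Nothing in the sources used here says how the cells were purified or whether separate mice stand behind the arrays, and the p-values below therefore rest on array-to-array spread that may be technical.

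B cells recognise antigen through surface immunoglobulin and can become antibody-secreting cells, whereas CD8 T cells recognise peptides on class I MHC molecules and can become cytotoxic. Both circulate through the spleen and lymph nodes, but they settle in different compartments, guided by chemokine receptors, selectins and integrins. The array also covers the enzymes that build the sugar chains of surface proteins and lipids, and the lectins that read those chains. Among these lectins are the Siglecs, which bind sialic acid, and the selectins, which bind sialylated and fucosylated glycans on carriers such as PSGL-1.

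Each value is an intensity on a linear scale, called the signal here. Differences are fresh B minus fresh CD8 on the log2(signal + 16) scale, which understates the change of dim genes, and their errors are moderated standard errors (SE). A probe set passed at an adjusted p under 0.05 in limma, with the Benjamini-Hochberg adjustment over all 746. Without detection calls, low signals cannot be separated from background here, and precision is limited by 3 arrays a group. Pearson correlations of log2 signals, across probe sets, lay between 0.871 and 0.934 within fresh B cells and between 0.890 and 0.925 within fresh CD8 cells, against 0.789 to 0.890 between a B array and a CD8 array. B array K correlated least with the others of its group, and B arrays G and K came from other chip lots than the remaining 4 arrays. The median signal averaged 164 ± 13.7 in fresh B cells and 152 ± 31.2 in fresh CD8 cells (SD, n = 3 each), and the 3'/5' signal ratio of beta-actin, a sign of RNA quality, averaged 1.14 ± 0.0663 in fresh B cells and 1.26 ± 0.312 in fresh CD8 cells. Exact two-sided permutation tests gave p = 0.6 and p = 0.9 for these, where 3 against 3 arrays cannot go below 0.1.

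Fresh B cells differed from fresh CD8 cells in 61 of the 746 probe sets, which is 8.18%. Of these, 31 were higher in fresh B cells (4.16%) and 30 were lower (4.02%), with a median difference over all 746 of 0.03. Among them are 21 named genes on the higher side and 20 on the lower, 5 higher and 6 lower probe sets without a gene name, and 9 further probe sets of named genes. In 58 of the 61 every B array lay on the same side of every CD8 array, a pattern that 148 of all 746 probe sets (19.8%) showed. The largest differences of named genes were those of Hs3st1, Fcer2a and Cd22 upwards and of Il7r, Cxcr6 and Itgae downwards. In bulk RNA a lower signal may mean fewer cells that express a gene or less of its RNA per cell, and these cannot be told apart.

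**Figure D1:**
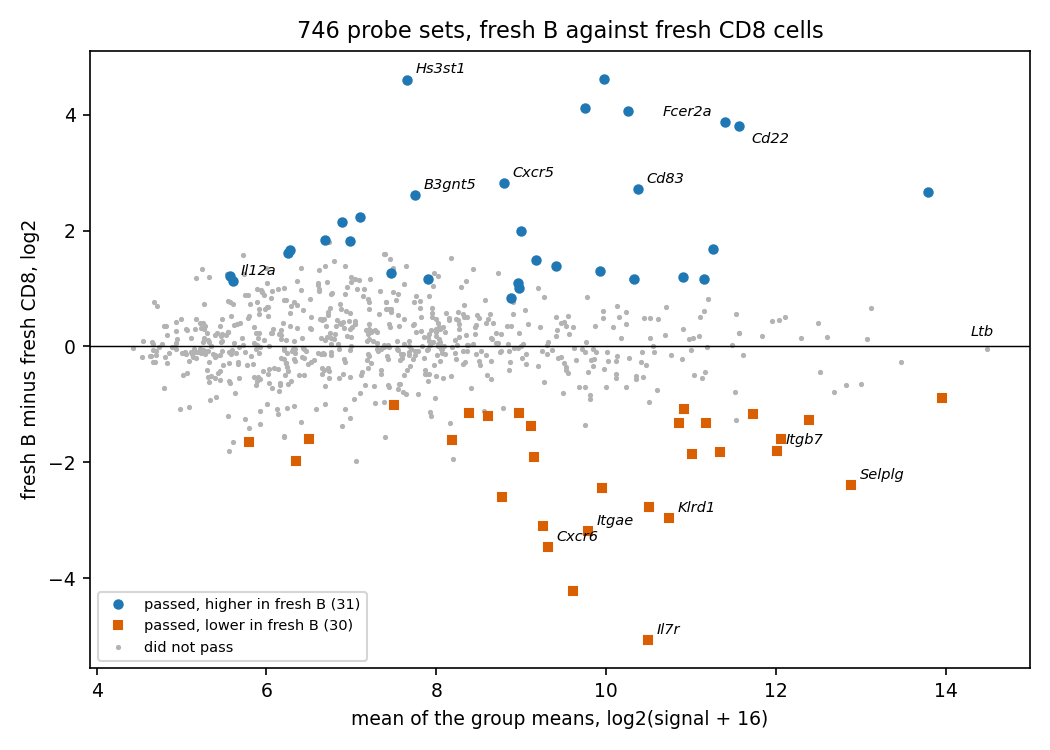
Difference between fresh B and fresh CD8 cells (y axis, log2) against the mean level of the groups (x axis, mean log2(signal + 16)) for 746 probe sets, 1 point each. The 31 probe sets that passed upwards and the 30 that passed downwards are spread over low and high mean levels, and Ltb lies at a difference of -0.04.

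Most measured genes of a B-cell surface list were high on all 3 arrays labelled as B cells. Of the 5 measured genes of that B-cell surface list, 4 were higher in fresh B cells and none lower, with a list median of 2.82. Over all 375 named genes, 5.6% passed upwards and 5.33% downwards, shares that stand beside every list count below. Cd22, the sialic acid-binding coreceptor that dampens signals of the B-cell antigen receptor, had signals of 10301, 12771 and 10895 in fresh B cells, against 1133, 576 and 766 in fresh CD8 cells. Its difference was 3.80 ± 0.32 (limma adjusted p = 3.93e-09). Fcer2a, the low-affinity IgE receptor CD23 and a C-type lectin, stood at 11866, 11109 and 8291 in fresh B cells, against 1622, 442 and 455 in fresh CD8 cells. The B arrays were close together for both genes, whereas CD8 array A carried the highest Fcer2a and Cd22 signals of its group. Fcer2a differed by 3.87 ± 0.42 (limma adjusted p = 1.77e-07).

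Cxcr5, the receptor that draws B cells into follicles, had 1545, 1095 and 937 in fresh B cells, against 321, 151 and 66.7 in fresh CD8 cells, a difference of 2.82 ± 0.54 (limma adjusted p = 0.000802). Cd83, a surface protein of mature dendritic cells and of B cells, had 3661, 3417 and 3149 in fresh B cells, against 564, 472 and 482 in fresh CD8 cells. Cd83 was one of the tightest of the large differences, at 2.72 ± 0.28. Cd72, a C-type lectin receptor of B cells, did not pass, with 123, 196 and 229 in fresh B cells and 114, 67.5 and 118 in fresh CD8 cells. A probe set listed as PROP_SIGLEC2_at, to which no gene name is given here, was higher in fresh B cells by 4.05, but lay at 2.17 with no call when scan day was a block (limma adjusted p = 0.22). The probe set AK002232_at, also unnamed, had 29292, 35258 and 43648 in fresh B cells, against 12438, 4342 and 3252 in fresh CD8 cells. The defining genes Cd79a, Cd3e and Cd8a were not analysed here.

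Both measured genes of a T-cell surface list, Il7r and Cd2, were lower in fresh B cells. Il7r, the receptor chain for the survival cytokine IL-7, gave the largest difference of the 746 probe sets, with 324, 333 and 116 in fresh B cells, against 7737, 10069 and 7431 in fresh CD8 cells. The difference was -5.06 ± 0.36 (limma adjusted p = 3.51e-10), and no CD8 array came near a B array. Cd2, an adhesion receptor of T cells and NK cells, had 3003, 2429 and 1553 in fresh B cells, against 5155, 6192 and 4033 in fresh CD8 cells, so the gap was narrower than for Il7r. It passed at -1.16 ± 0.35 (limma adjusted p = 0.0414), and lost the call without CD8 array A (0.0996), CD8 array B (0.182), B array E (0.0715) or B array K (0.209), as limma adjusted p-values. The unnamed probe sets L24495_at and L24495_s_at were lower too, at -4.23 and -2.44.

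Of 11 measured genes of CD8 and NK effector cells, 6 were lower in fresh B cells and none higher, with a list median of -1.81. Klrd1 encodes CD94, a C-type lectin-like receptor of NK cells and some CD8 cells, and had 821, 1054 and 243 in fresh B cells, against 5149, 5672 and 3735 in fresh CD8 cells. Its difference was -2.96 ± 0.43 (limma adjusted p = 1.79e-05). Il2rb, the beta chain shared by the IL-2 and IL-15 receptors, had 1031, 1137 and 126 in fresh B cells, against 3842, 4421 and 3119 in fresh CD8 cells. B array K stood far below the other B arrays for Il2rb, and the difference of -2.76 became -1.78 without it.

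Xcl1 and Ccl5, chemokine genes of the same list, repeated this pattern among the B arrays. The other chemokine genes of the list, Ccl3 and Ccl4, lay at 0.12 and -0.26 and did not pass. Xcl1, a chemokine made by activated CD8 and NK cells, had 292, 386 and 29 in fresh B cells, against 1422, 1443 and 572 in fresh CD8 cells. Ccl5, a chemokine stored by memory CD8 cells, had 2190.3, 2769.6 and 412 in fresh B cells, against 6093, 4464 and 4169.9 in fresh CD8 cells. Both passed, at -2.60 ± 0.81 (limma adjusted p = 0.0462) and -1.81 ± 0.52 (limma adjusted p = 0.0283), and for both array K was the lowest of the B arrays by far. Without array K the differences were -1.61 and -0.97 and neither passed (limma adjusted p = 0.303 and 0.249). Leaving out CD8 array A or CD8 array B also ended both calls, with limma adjusted p-values of 0.133 and 0.169 for Xcl1 and 0.0999 and 0.0756 for Ccl5. A second probe set of Xcl1 lay at -1.94 and did not pass, while that of Ccl5 passed at -1.64.

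Summed over the 11 effector genes, the signal was 5301, 6173 and 1793 on B arrays G, E and K, against 14906 to 21484 on the CD8 arrays. Summed over the 5 B-cell genes it was 23502 to 28588 on the B arrays, against 3755, 1709 and 1887 on CD8 arrays A, B and C. Fresh B array K thus carried the least effector-gene signal of its group, and CD8 array A the most B-cell signal of its group. Myeloid markers summed to 4647, 3898 and 1816 on the B arrays and to 1353 to 2399 on the CD8 arrays over 6 genes, of which Cd33 and Csf3r were higher in fresh B cells and none lower (list median 1.35). Platelet, endothelial and stromal markers summed to 4156 to 4930 on the B arrays and 2423 to 2669 on the CD8 arrays over 9 genes, none of which passed. On the fresh CD4 arrays the myeloid list summed to 2886 to 3830 and the platelet, endothelial and stromal list to 2934 to 5950. Neither sum was thus raised on the B arrays alone. The CD4 T-cell list, of helper cytokines and receptors, gave no call in 7 genes and sums of 786 to 1229 on the B arrays, against 402 to 1169 on the CD8 arrays. The T-cell pair summed to 1669 to 3328 on the B arrays, against 11464 to 16261 on the CD8 arrays. No marker was listed at 0 on any array, since the lowest value in the table is 1.0. The part that other cell types have in the differences was not tested.

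**Figure D2:**
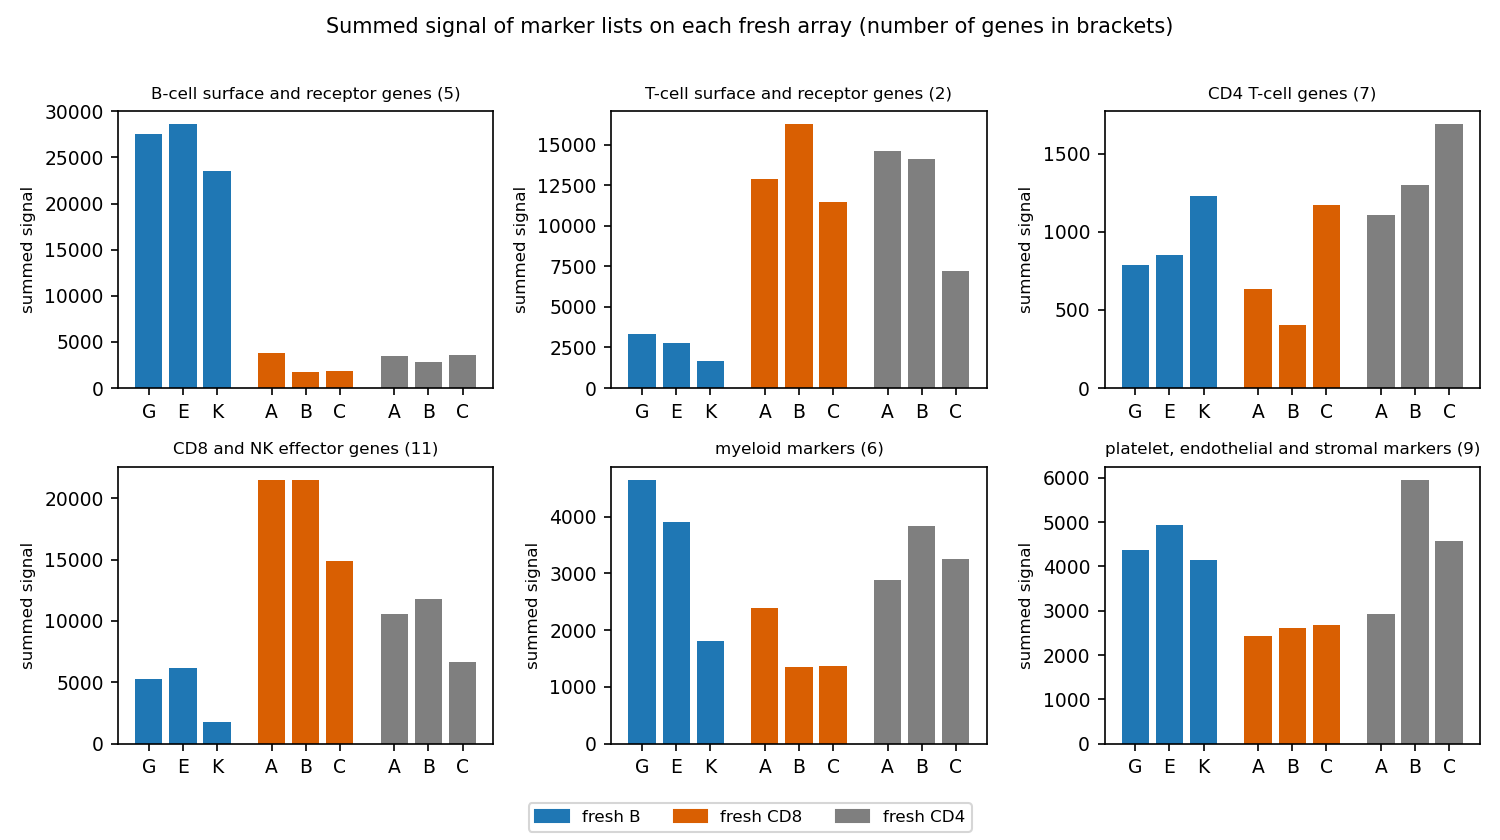
Summed signal (y axis, linear intensity) of the measured genes of 6 marker lists on each fresh array, 1 bar an array, with B, CD8 and CD4 arrays from left to right and their title letters under the bars. The B-cell sum is 23502 to 28588 on the B arrays and at most 3755 on the CD8 arrays, and the effector sum of B array K is 1793, against 5301 and 6173 on the other B arrays.

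The promoters of the 3 genes with the largest differences in each direction that have an entry in RefSeq's promoter table (GRCm38.p6) are shown because these genes separate the cell types most. Of the 28 leading genes, 17 have an entry. Each run is the 250 bases before the start of the gene, 5′ to 3′ on the gene's strand, and capitals mark matches on either strand to 4 motifs searched by letters: the octamer ATGCAAAT, an EBF motif of TCCC and GGGA with any 2 bases between, a RUNX motif TGTGGT and an ETS motif GGAAGT. EBF and octamer-binding factors are known from B cells, and RUNX and ETS factors from lymphocytes in general. Higher in fresh B cells were Hs3st1 (chr5:39644632-39644881, minus strand), Fcer2a (chr8:3694175-3694424, minus strand, the outermost of 3 listed starts) and Cd22 (chr7:30879029-30879278, minus strand). Lower were Il7r (chr15:9529877-9530126, minus strand), Cxcr6 (chr9:123806227-123806476, plus strand) and Cxcr3 (chrX:101734148-101734397, minus strand).
Hs3st1: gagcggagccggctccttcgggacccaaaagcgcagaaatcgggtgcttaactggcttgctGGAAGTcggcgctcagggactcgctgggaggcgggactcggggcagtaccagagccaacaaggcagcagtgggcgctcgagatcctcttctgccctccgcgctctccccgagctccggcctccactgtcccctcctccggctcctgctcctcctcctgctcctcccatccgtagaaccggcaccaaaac
Fcer2a: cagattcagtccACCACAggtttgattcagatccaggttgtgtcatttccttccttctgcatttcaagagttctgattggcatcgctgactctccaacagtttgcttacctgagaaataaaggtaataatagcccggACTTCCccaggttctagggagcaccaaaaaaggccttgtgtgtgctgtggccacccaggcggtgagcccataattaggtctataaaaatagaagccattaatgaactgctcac
Cd22: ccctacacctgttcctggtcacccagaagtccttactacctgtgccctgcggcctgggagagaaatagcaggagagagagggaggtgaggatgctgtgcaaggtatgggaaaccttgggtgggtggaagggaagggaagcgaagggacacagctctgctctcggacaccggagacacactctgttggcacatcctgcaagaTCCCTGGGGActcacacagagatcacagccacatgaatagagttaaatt
Il7r: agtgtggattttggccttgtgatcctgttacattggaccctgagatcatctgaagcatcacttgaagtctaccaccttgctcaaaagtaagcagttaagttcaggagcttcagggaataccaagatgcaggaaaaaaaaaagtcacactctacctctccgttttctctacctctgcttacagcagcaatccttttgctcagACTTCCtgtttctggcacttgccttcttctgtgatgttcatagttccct
Cxcr6: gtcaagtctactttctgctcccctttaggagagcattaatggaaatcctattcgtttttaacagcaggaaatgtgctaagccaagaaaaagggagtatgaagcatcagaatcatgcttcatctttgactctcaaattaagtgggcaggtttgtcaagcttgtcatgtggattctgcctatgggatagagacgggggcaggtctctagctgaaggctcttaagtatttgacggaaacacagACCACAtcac
Cxcr3: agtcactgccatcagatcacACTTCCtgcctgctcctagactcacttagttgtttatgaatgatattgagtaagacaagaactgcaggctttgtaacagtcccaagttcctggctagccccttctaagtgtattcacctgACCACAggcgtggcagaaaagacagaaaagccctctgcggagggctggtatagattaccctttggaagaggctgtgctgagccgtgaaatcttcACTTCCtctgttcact
The Cd22 window holds 1 match to the EBF letters, which begin 49 bases before the start, and these letters occur in 0.78% of the table's 32841 windows of this length. Fcer2a has 1 RUNX and 1 ETS match, Hs3st1 1 ETS match, Il7r 1 ETS match 49 bases before the start, Cxcr6 1 RUNX match and Cxcr3 1 RUNX and 2 ETS matches. RUNX letters are in 14% of all windows, ETS letters in 19.7% and the octamer in 1.6%, and none of the 6 windows holds the octamer. A match describes the letters of the window and does not show binding.

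**Figure D3:**
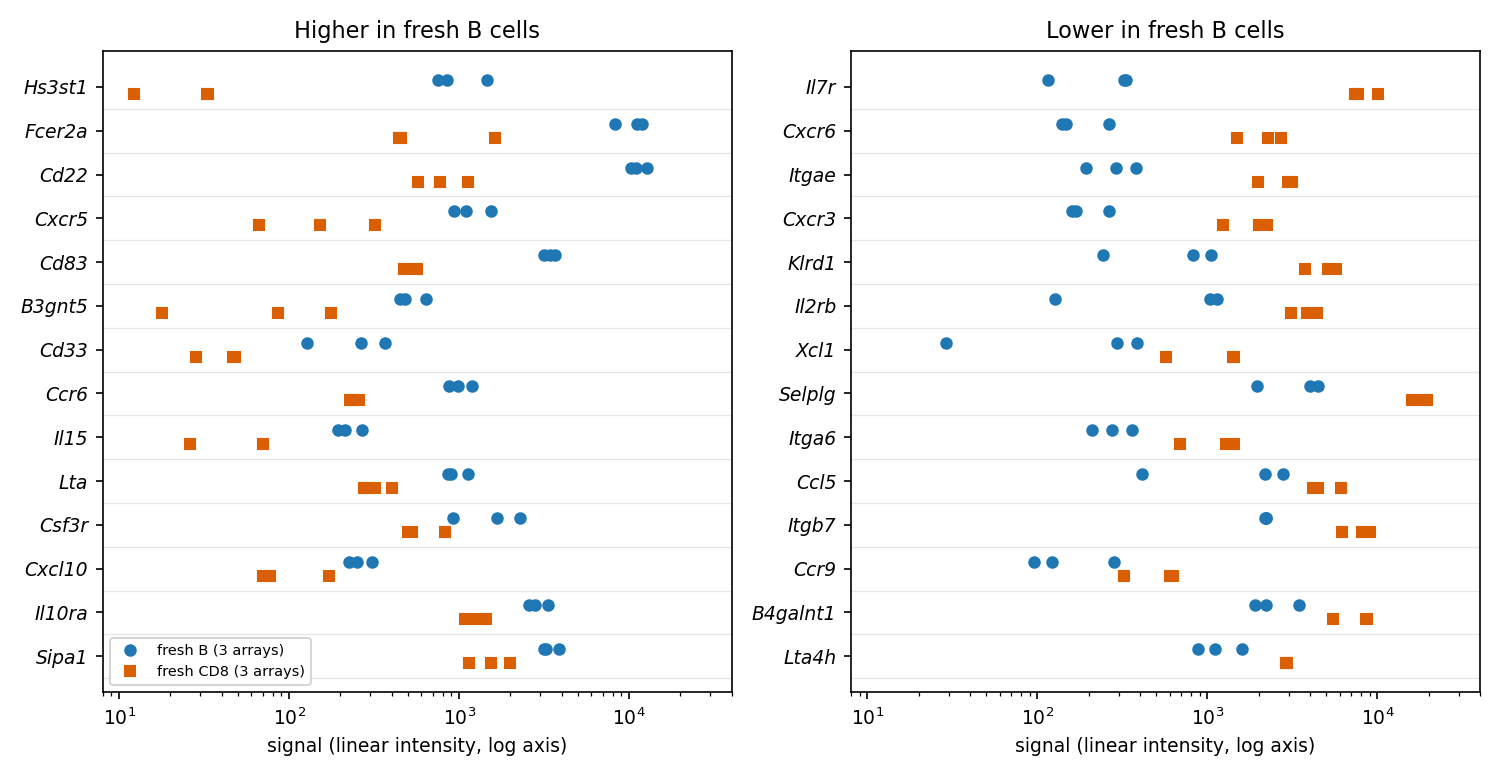
Signal on each array (x axis, log scale) of the 14 named genes with the largest differences upwards (left) and the 14 downwards (right), with fresh B arrays as circles above and fresh CD8 arrays as squares below, 3 each. The groups do not overlap in any of the 28, as the choice of these genes requires, and B array K lies apart to the low side for Il2rb, Xcl1 and Ccl5.

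Among genes that build glycans, a few changed far and most did not pass. Hs3st1, which adds the 3-O-sulfate group of heparan sulfate, had 853, 1453 and 752 in fresh B cells, against 32.7, 12.3 and 33.3 in fresh CD8 cells, a difference of 4.61 ± 0.47 (limma adjusted p = 1.15e-07). The CD8 signals are close to the 16 added before taking logs, so the fold is understated. No other of the 14 measured carbohydrate sulfotransferase genes passed, and the list median was 0.12. Chst3, a chondroitin sulfotransferase, came next at 1.32 ± 0.52 without passing. None of the 4 genes of glycosaminoglycan chain synthesis (list median 0.43) and none of the 3 proteoglycan core proteins (-0.08) passed. The syndecan gene Sdc4 had 649.8, 336 and 1198 in fresh B cells and 289, 217 and 274 in fresh CD8 cells.

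Glycolipid genes moved in both directions. B3gnt5, the enzyme that starts lacto-series glycolipids, had 447, 638 and 480.4 in fresh B cells, against 175, 86 and 17.8 in fresh CD8 cells, and was higher by 2.61 ± 0.51 (limma adjusted p = 0.00106). B4galnt1, the synthase of the gangliosides GM2 and GD2, had 3469, 1916 and 2215 in fresh B cells, against 8728, 8552 and 5445 in fresh CD8 cells, and was lower, at -1.59 ± 0.33 (limma adjusted p = 0.00162). St8sia1, which makes the ganglioside GD3, had low signals in both, at 24.9, 43.3 and 43 in fresh B cells, against 88.8, 142 and 221 in fresh CD8 cells. It passed at -1.59 ± 0.49 (limma adjusted p = 0.0444) and lost the call without any single array of the 6 other than CD8 array A (limma adjusted p up to 0.173). Of 5 measured glycolipid genes, then, 1 passed upwards and 2 downwards, and B4galt6, a lactosylceramide synthase, lay at 0.01.

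A list of O-glycan genes gave 2 calls upwards in 4 genes, where 5.6% of the 375 named genes passed upwards. These were Gcnt1 and B3gnt5, given above as a glycolipid gene, so the same B3gnt5 call stands in both lists. C1galt1, the core 1 synthase, lay at 0.33 ± 0.29 and did not pass. Gcnt1, the enzyme of core 2 branching, had 204, 272 and 25.9 in fresh B cells, against 23.5, 22.3 and 38.4 in fresh CD8 cells, so B array K lay among the CD8 arrays and the groups overlapped. Its difference of 1.67 ± 0.49 (limma adjusted p = 0.0342) became 2.53 without array K and lost the call without B array G, B array E, CD8 array A or CD8 array B (limma adjusted p up to 0.232). A second probe set of Gcnt1 gave -0.71 and did not pass.

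For sialic acid, Renbp, an epimerase of N-acetylglucosamine and a step next to sialic acid supply, had 697, 798 and 659 in fresh B cells, against 351, 325 and 302 in fresh CD8 cells. The arrays were tight in both groups, at 1.10 ± 0.31 (limma adjusted p = 0.0275), yet leaving out any single array other than B array K ended the call (limma adjusted p up to 0.0848). Slc35a1, the CMP-sialic acid transporter, disagreed between probe sets, at 0.35 without passing and -1.01 with a call. Cmah, which converts sialic acid to its N-glycolyl form, had 445, 406 and 544 in fresh B cells and 867, 567 and 388 in fresh CD8 cells and did not pass. St3gal6, St6galnac4 and St6galnac1, which transfer sialic acid to galactose or N-acetylgalactosamine, lay between -0.14 and 0.40, so St8sia1 was the only call in 4 sialyltransferases.

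No gene passed among 5 of fucose transfer (median -0.15), 6 galactosyltransferases (0.44), 2 of N-glycan trimming and branching, 3 of N-glycan precursor and folding (-0.07) and 6 of nucleotide sugar synthesis and glycolysis (-0.44). Fut7, the fucosyltransferase of selectin ligands, had 77.5, 68.8 and 34.2 in fresh B cells and 187, 100.4 and 279.5 in fresh CD8 cells, groups that did not overlap, with a limma adjusted p of 0.264. Hk1, a hexokinase, had 594, 534 and 460.3 in fresh B cells and 958, 1058 and 803 in fresh CD8 cells (limma adjusted p = 0.0713). Mgat3, which adds bisecting N-acetylglucosamine, lay at -0.11. Of 16 lysosomal genes 1 was higher, Hexa, a chain of beta-hexosaminidase, and the list median was 0.02. That share is near the 5.6% of all named genes that passed upwards. Hexa lay at 1.001 ± 0.30 (limma adjusted p = 0.0364). Its call was lost without B array G, B array E, CD8 array B or CD8 array C (limma adjusted p up to 0.159).

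Of 4 measured Siglecs, 2 were higher and none lower in fresh B cells, with a median of 1.87. Cd33, a Siglec of myeloid cells whose list sums are given above, had 128, 368 and 265 in fresh B cells, against 48.3, 28.2 and 47 in fresh CD8 cells, and passed at 2.15 ± 0.53 (limma adjusted p = 0.0106). It lost the call without CD8 array B (0.0639) or B array E (0.0651). Siglece, another Siglec of myeloid cells, and Siglec1, of macrophages, lay at 1.59 and -0.55 and did not pass. Of 8 C-type lectin genes, Fcer2a passed upwards and Klrd1 downwards, and the others did not pass.

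Selplg encodes PSGL-1, the glycoprotein that presents ligands to the selectins, and had 4498, 4033 and 1962 in fresh B cells, against 16872, 19539 and 15934 in fresh CD8 cells. It was lower on every B array, at -2.40 ± 0.29 (limma adjusted p = 1.36e-06), and B array K had the lowest signal. Lamp2, a lysosomal membrane glycoprotein, was higher by 0.84 ± 0.22 (limma adjusted p = 0.0144), without CD8 array A or B array E no longer so (0.063 and 0.053). Of 6 genes of selectins and ligand proteins, then, 1 was higher and 1 lower, with a median of 0.17.

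Chemokine receptors separated the cell types in both directions, with 2 of 14 measured genes higher, 3 lower and a median of 0.10. Ccr6, the receptor of CCL20, had 866, 980.5 and 1193 in fresh B cells, against 257, 229 and 235 in fresh CD8 cells, at 1.996 ± 0.41 (limma adjusted p = 0.00162), and joins Cxcr5 on the higher side. Cxcr6, which binds CXCL16 and marks effector and memory T cells, had 139, 148 and 262 in fresh B cells, against 2287, 2693 and 1485 in fresh CD8 cells. Cxcr3, the receptor for interferon-induced chemokines, had 265, 160.1 and 169 in fresh B cells, against 2256, 2010.5 and 1238 in fresh CD8 cells. Differences were -3.46 ± 0.37 for Cxcr6 (limma adjusted p = 1.72e-07) and -3.10 ± 0.62 for Cxcr3 (limma adjusted p = 0.00122), and both receptors were several times brighter on every CD8 array than on any B array.

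Ccr9, the gut-homing receptor for CCL25, had 95.8, 122 and 284 in fresh B cells, against 601, 626 and 322 in fresh CD8 cells, so the highest B array, K, and the lowest CD8 array, C, came close. It passed at -1.62 ± 0.42 (limma adjusted p = 0.0144) and lost the call without B array G, B array E, CD8 array A or CD8 array B (limma adjusted p up to 0.0903). Ccr7, which guides lymphocytes into lymph nodes, missed the threshold, with 1676, 2065 and 1946 in fresh B cells, against 4289, 5227 and 4223 in fresh CD8 cells (limma adjusted p = 0.0539), although the groups did not overlap. Among 27 measured chemokines 3 passed, near the 10.9% of all named genes, namely Xcl1 and Ccl5 downwards and Cxcl10 upwards. Cxcl10, an interferon-induced ligand of Cxcr3, had 249.6, 308 and 225 in fresh B cells, against 70.1, 77.6 and 171 in fresh CD8 cells, at 1.26 ± 0.36 (limma adjusted p = 0.0287). That call did not hold without CD8 array A or B or without B array G or E (limma adjusted p up to 0.142), nor after centring each array on its median (0.0584), nor with scan day as a block, where Cxcl10 lay at 0.66 (0.723).

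Integrin genes were mostly on the lower side among the calls, with 4 of 12 lower, 1 higher and a median of -0.19. Itgae, the alpha E chain that pairs with beta 7 and holds T cells to epithelium, had 291, 380.2 and 192 in fresh B cells, against 3165, 2997 and 1981 in fresh CD8 cells, at -3.19 ± 0.30 (limma adjusted p = 2.39e-08). Its partner Itgb7 had 2189, 2226 and 2199.7 in fresh B cells, against 8129, 9047 and 6218 in fresh CD8 cells, at -1.80 ± 0.31 (limma adjusted p = 0.000257). The B arrays agreed closely for Itgb7, and a second probe set of it passed at -1.86.

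Itga6, a laminin-binding chain, had 276, 209.9 and 362 in fresh B cells, against 1285, 1432 and 692 in fresh CD8 cells, at -1.91 ± 0.43 (limma adjusted p = 0.00411). With scan day as a block Itga6 lay at -1.16 with no call (limma adjusted p = 0.524). Itgb2, the common chain of LFA-1 and related integrins, named here after its values were seen, had 4779, 4562 and 1853 in fresh B cells, against 10085, 9368 and 6054 in fresh CD8 cells, at -1.27 ± 0.35 (limma adjusted p = 0.0239). B array K was the lowest of its group for Itgb2, which lay at -0.83 without it, and the call was lost without that array, CD8 array A or CD8 array B (limma adjusted p up to 0.2). Itgav, a vitronectin-binding chain, was the integrin gene that was higher, with 206, 92.8 and 287 in fresh B cells, against 112, 11.1 and 31 in fresh CD8 cells. The groups overlapped, and its call (1.83 ± 0.42, limma adjusted p = 0.00491) was lost without CD8 array B (0.0756), while a second probe set of the gene gave -0.13 without passing. Vcam1, an adhesion gene of stroma and endothelium, lay at 0.82 ± 0.43 and did not pass.

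Cytokine receptor genes gave 2 calls upwards and 2 downwards in 23, with a median of -0.12. Beside Il7r and Il2rb on the lower side, Il10ra, the receptor chain for IL-10, was higher, with 3347, 2568 and 2804 in fresh B cells, against 1252, 1443 and 1075 in fresh CD8 cells, at 1.20 ± 0.29 (limma adjusted p = 0.00799). Csf3r, the G-CSF receptor of granulocytes, had 2267, 1669 and 915 in fresh B cells, against 821, 525 and 503 in fresh CD8 cells, at 1.31 ± 0.29 (limma adjusted p = 0.00411). It is also in the myeloid list, and its B and CD8 arrays did not overlap. Il6st, the gp130 signalling chain, missed the threshold at -1.98 ± 0.65 (limma adjusted p = 0.0593).

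Of 17 interleukin and interferon genes, 2 were higher and none lower in fresh B cells, with a median of 0.22. In either direction that share is near the 10.9% of all named genes, while 5.6% of all named genes passed upwards. Il15, a cytokine presented to CD8 and NK cells, had 193, 212 and 266 in fresh B cells, against 69.9, 26 and 69.8 in fresh CD8 cells, at 1.81 ± 0.49 (limma adjusted p = 0.0183), and lost the call without B array K (0.0679) or CD8 array B (0.134). Il12a, the p35 chain of IL-12, had low signals on all 6 arrays, with 65.1, 59.4 and 44.2 in fresh B cells, against 15.2, 17.2 and 18.5 in fresh CD8 cells, at 1.12 ± 0.20 (limma adjusted p = 0.000329). With scan day as a block Il12a lay at 0.87 with no call (limma adjusted p = 0.236).

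In the TNF family, Lta was higher in fresh B cells and Ltb did not pass. Lta, lymphotoxin alpha, had 1131, 865 and 893 in fresh B cells, against 320.0, 401 and 277 in fresh CD8 cells, at 1.495 ± 0.42 (limma adjusted p = 0.0275). Ltb, lymphotoxin beta, which anchors the lymphotoxin heterotrimer in the membrane, had 20952, 24651 and 22439 in fresh B cells and 22400.3, 25645 and 21791 in fresh CD8 cells, a difference of -0.04 ± 0.25. The Lta call was lost without any single array other than CD8 array B (limma adjusted p up to 0.0917), and a second probe set of Lta lay at 0.51 without passing. Tnfsf8, the CD30 ligand, and Fas, the death receptor, were lower, at -1.14 ± 0.32 (limma adjusted p = 0.0239) and -1.14 ± 0.28 (limma adjusted p = 0.00801). Fas lost its call without B array K (0.0527), with scan period as a block (0.0883) or with scan day as a block (0.261), as limma adjusted p-values. Tnfsf8 lost its call without B array G or E or CD8 array B or C (limma adjusted p up to 0.158). A second probe set of Tnfsf8 lay at -1.08 and did not pass, and with scan day as a block the Tnfsf8 difference was -0.18 (limma adjusted p = 0.9). Counts were 1 higher and 1 lower in 11 ligands and 1 lower in 10 receptors, where 5.6% of all named genes passed upwards and 5.33% downwards.

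Of the other leading genes, Sipa1, a GTPase-activating protein for Rap1, was higher at 1.16 ± 0.29 (limma adjusted p = 0.0117), a call lost without CD8 array C or B array E (0.0742 and 0.053), and a second probe set at 1.16 did not pass. Lta4h, a leukotriene A4 hydrolase, was lower at -1.31 ± 0.32 (limma adjusted p = 0.00804), and lost its call without B array K (limma adjusted p = 0.0505). Neither the 20 measured genes of the TGF-beta, activin and BMP family (median -0.09) nor the 21 angiogenic and growth factors (0.15) gave a call.

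**Figure D4:**
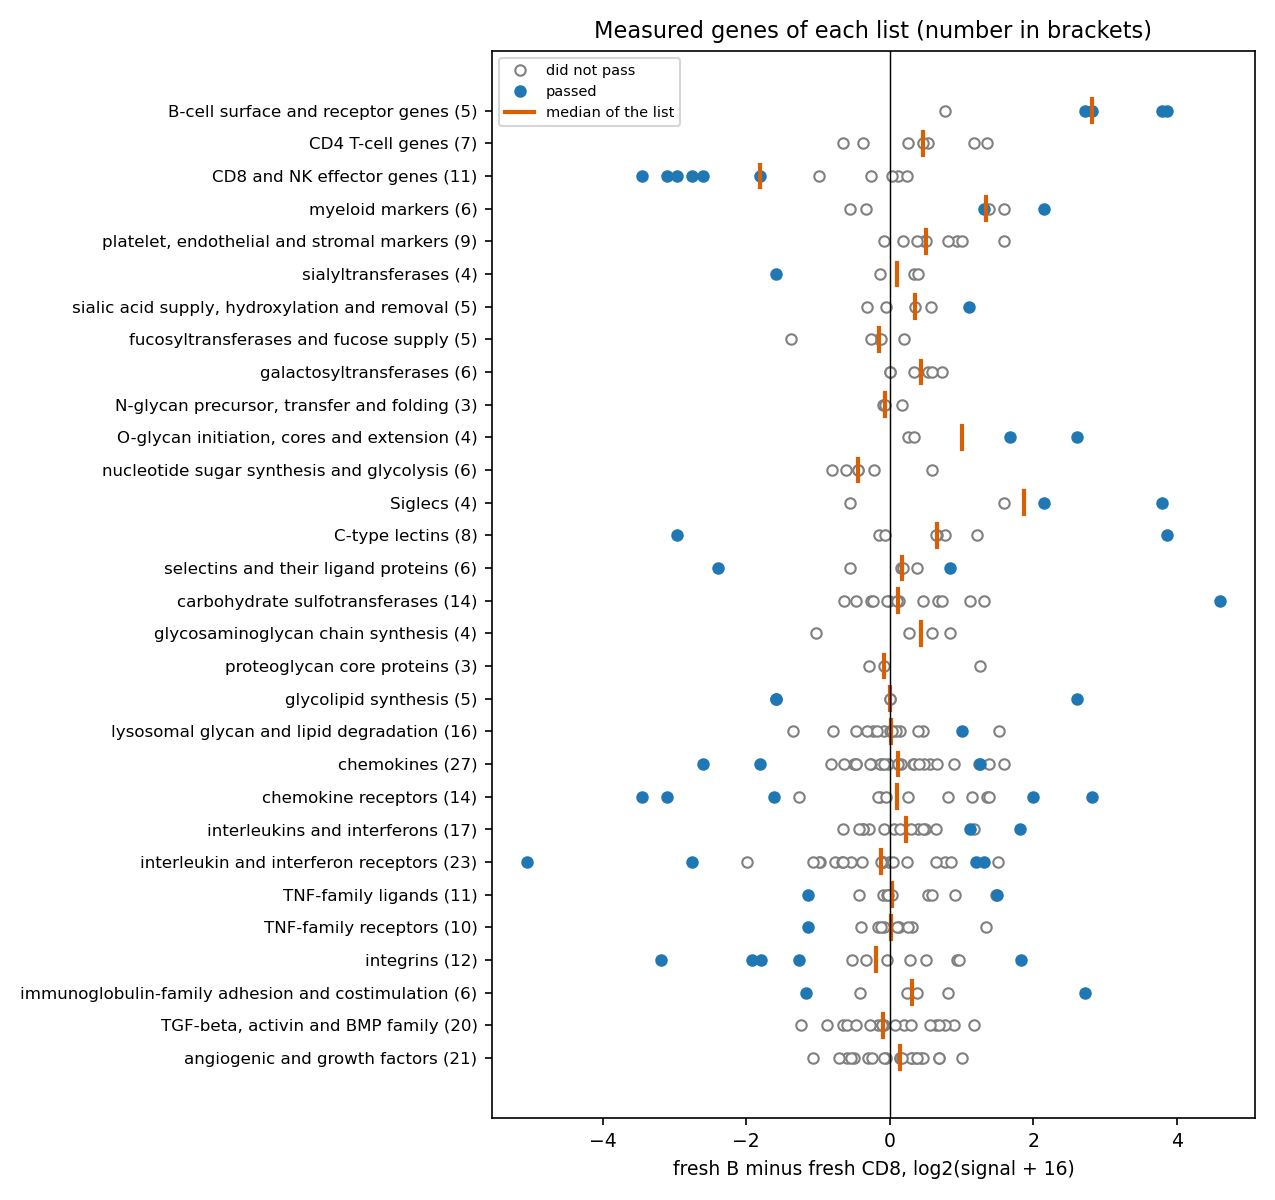
Difference between fresh B and fresh CD8 cells (x axis, log2) of every measured gene in the 30 lists with at least 3 measured genes, with the number of genes in brackets. Filled points passed, open points did not, and the bar marks the median, which is 2.82 for B-cell surface genes and -1.81 for CD8 and NK effector genes, against 0.03 over all 746 probe sets.

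Scan days, read from the experiment files, fall into 6 periods more than 14 days apart, and 1 period holds both groups, with B array G and CD8 array A. No scan day holds both groups, so a block on scan day compares them through the other groups of the series. The experiment files of this pair name the cell types of the titles but give both arrays the letter B, and the scan days and periods rest on those files. Of 43 probe sets that passed on the other 4 arrays of the comparison, 41 had the same direction in this pair, at a median 0.732 times the size, where 56.2% of all 746 were higher in the B array. With scan period as a block 39 probe sets passed, 36 of them among the 61, and 21 of the 28 leading genes kept their call. Those that lost it were Cd33, Lta, Cxcl10, Sipa1, Xcl1, Itga6 and Lta4h, at limma adjusted p-values between 0.0673 for Sipa1 and 0.236 for Cxcl10. With scan day as a block 17 passed, all among the 61, and 11 of the 28 leading genes were called, among them Hs3st1 (3.84), Cd22 (4.31), Il7r (-5.15) and Itgae (-3.37). The others of these 11 were Fcer2a, Cd83, Cxcr6, Cxcr3, Klrd1, Il2rb and Selplg, and the remaining leading genes lost their call. Other named genes that lost it were St8sia1, Gcnt1, Cd2, Renbp, Lamp2, Hexa, Il12a, Tnfsf8, Fas, Itgav and Itgb2. Beside PROP_SIGLEC2_at, values moved by over 1.5 times to 0.66 for Cxcl10, -1.16 for Itga6, 0.79 for Gcnt1 and -0.18 for Tnfsf8, while Cxcr3 moved to -4.79 with its call kept. Leaving out each of the 6 arrays in turn, 19 of the 28 leading genes were called whichever array was missing. Centring each array on its median moved the median over all probe sets to -0.08 from 0.03, and 18 higher and 29 lower probe sets then passed, so the balance of higher and lower calls depends on the scaling. Of the leading genes Lta, Cxcl10, Il10ra, Sipa1 and Xcl1 lost their call under that centring.

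Fresh CD4 cells show which of these differences set B cells apart from CD8 cells by another amount than from CD4 cells. The comparisons share the B arrays, so the test is the difference between fresh CD4 and fresh CD8 cells. It passed in 12 of 746 probe sets (1.61%), 5 of them among the 61, of which 3 are the named genes Itgae, Klrd1 and Cxcl10. The 61 were chosen with the same CD8 arrays, so the 5 shared calls are not independent of that choice. Itgae had 346, 461 and 537 in fresh CD4 cells, close to the B arrays and far below the CD8 arrays, at -2.55 ± 0.30 for fresh CD4 minus fresh CD8 (limma adjusted p = 7.13e-06). Klrd1 had 963, 1267 and 827 in fresh CD4 cells, at -2.23 ± 0.43 (limma adjusted p = 0.0056). With scan day as a block Itgae kept its call, at -2.47, and Klrd1 did not, at -1.53 (limma adjusted p = 0.454). For Cxcl10 the CD4 arrays, at 324, 331 and 259, lay with the B arrays, at 1.48 ± 0.36 (limma adjusted p = 0.0304), a call that was lost on leaving out any CD4 array or CD8 array A or B (limma adjusted p up to 0.193), or after centring each array on its median (0.0893), or with scan day as a block, where it lay at 0.88 (0.667).

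For most leading genes fresh CD4 and fresh CD8 cells gave no call between them, Itgae, Klrd1 and Cxcl10 apart. Il7r had 7728, 7108 and 5289.9 in fresh CD4 cells and a fresh B minus fresh CD4 difference of -4.73, beside -5.06 against fresh CD8 cells. Cd22 gave 3.30 against fresh CD4 cells beside 3.80 against fresh CD8 cells, and Fcer2a 3.25 beside 3.87. Hs3st1 had 141, 52.7 and 221 in fresh CD4 cells, above every CD8 array, and its CD4 minus CD8 difference of 1.75 ± 0.47 did not pass (limma adjusted p = 0.0584). CD4 array C had a beta-actin 3'/5' ratio of 7.62, against at most 1.62 on the B and CD8 arrays, and its part in these CD4 values was not tested beyond leaving it out, which kept Itgae at -2.69 and Klrd1 at -2.10.

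After culture, the difference between the cell types was asked again in B cells with anti-IgM and IL-4 and CD8 cells with IL-2 and IL-4, cultures that share IL-4 at 10 ng/ml but not their other additions. Between these cultured cells 160 of 746 probe sets passed (21.4%). Of the 61 probe sets that separated fresh B from fresh CD8 cells, 35 passed in the same direction after culture, 2 in the opposite direction and 24 did not pass. The change of the difference itself, tested as an interaction, passed in 63 of 746 (8.45%), 12 of them among the 61, of which 9 are named genes. The interaction reuses the fresh arrays by which the 61 were chosen. A fresh difference enlarged by noise thus favours an interaction call in the opposite direction.

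Most of these 9 were differences that were smaller after culture, the direction that their choice on the same fresh arrays favours. Itgae had 196, 311 and 436 in cultured B cells, against 299.5, 218 and 263 in cultured CD8 cells, so the groups overlapped, and the difference changed by 3.39 ± 0.42 (limma adjusted p = 7.24e-06). Cxcr6 had 258, 443 and 134 in cultured B cells, against 308, 228 and 373 in cultured CD8 cells, a change of 3.22 ± 0.52 (limma adjusted p = 0.000234). Ccr9 followed with a change of 2.35 ± 0.59 (limma adjusted p = 0.014), Itga6 with 2.15 ± 0.61 and Selplg with 1.38 ± 0.41. For Selplg the cultured cells still differed, by -1.01 ± 0.29. Il10ra, higher in fresh B cells, had 853, 288 and 583 in cultured B cells, against 691, 598 and 731 in cultured CD8 cells, a change of -1.54 ± 0.41.

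Lta turned round. It had 138, 173 and 298 in cultured B cells, against 4169, 1645 and 2008 in cultured CD8 cells, the reverse of the fresh order, and the cultured difference was -3.53 ± 0.42 (limma adjusted p = 7.2e-07). The difference changed by -5.03 ± 0.60 (limma adjusted p = 4.81e-06). Itgav had 384, 381 and 253 in cultured B cells, against 616, 822 and 829 in cultured CD8 cells, a change of -2.96 ± 0.59 (limma adjusted p = 0.00195), with a cultured difference of -1.13 ± 0.42 that missed the threshold (limma adjusted p = 0.0547). Renbp moved further apart, with 3879, 3088 and 2747 in cultured B cells, against 512, 362 and 565 in cultured CD8 cells, a change of 1.62 ± 0.44 (limma adjusted p = 0.0225). Itgae, Cxcr6, Ccr9, Lta and Itgav kept the interaction call whichever array of the 12 was left out. Itga6, Renbp, Selplg and Il10ra lost it without at least 1 array, with limma adjusted p-values up to 0.0745 for Itga6, 0.0695 for Renbp, 0.106 for Selplg and 0.0546 for Il10ra. The arrays whose absence ended the call were 5 of the 12 for Itga6 (fresh CD8 A and B, cultured CD8 A, fresh B E and cultured B K), cultured CD8 B and cultured B G for Renbp, cultured B H for Il10ra, and 7 of the 12 for Selplg, all but fresh CD8 C, cultured CD8 A, fresh B G and E and cultured B K. Itga6, Renbp and Selplg also lost it after centring each array on its median, and Itga6 with scan day as a block (limma adjusted p = 0.103). The experiment file of the cultured CD8 array C gives another array's name than its title, and without it the changes were 3.40 for Itgae and -5.15 for Lta, and Selplg no longer passed (0.0656).

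The B-cell surface genes Cd22, Fcer2a and Cd83 passed in culture as well. Cd22 had 4317, 3623 and 8044 in cultured B cells, against 188, 289.8 and 297 in cultured CD8 cells, and Fcer2a 5899, 4428 and 6056 in cultured B cells, against 153, 117 and 217 in cultured CD8 cells, differences of 4.22 ± 0.32 and 4.96 ± 0.42. Cd83 had 15874, 11350.0 and 14813 in cultured B cells, against 1969, 1719 and 1559 in cultured CD8 cells, and the cultured difference was 2.98 ± 0.28, beside 2.72 ± 0.28 in fresh cells, with no interaction call (limma adjusted p = 0.804). Il7r remained lower in cultured B cells, at -4.23 ± 0.36 (limma adjusted p = 3.13e-09), and so did Klrd1, at -4.46 ± 0.43 (limma adjusted p = 1.75e-08).

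**Figure D5:**
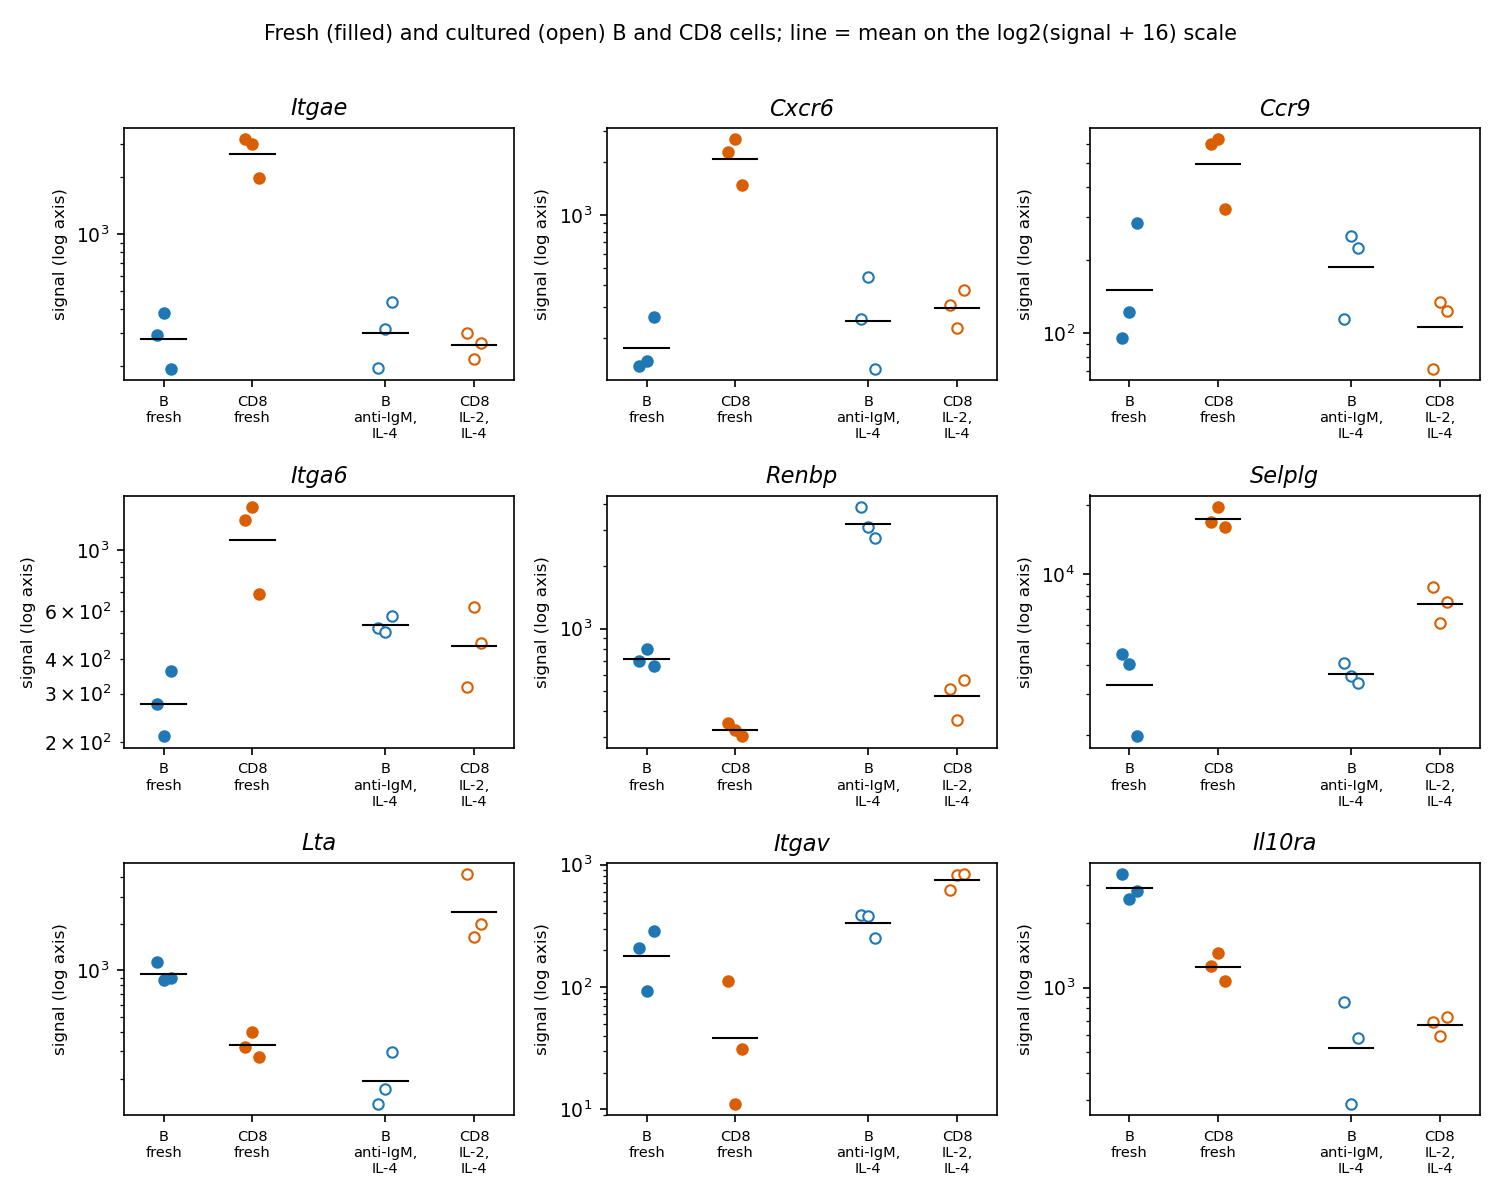
Signal on each array (y axis, log scale) of the 9 named genes that passed both between fresh B and fresh CD8 cells and in the interaction, with fresh cells as filled and cultured cells as open points, B left of CD8 in each pair, 3 arrays a group, and a line at the mean on the log2(signal + 16) scale. The CD8 points of Itgae and Cxcr6 lie far above the B points in fresh cells and among them in cultured cells, and the order of B and CD8 points for Lta is reversed in culture.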

How the data were processed

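RNA of 30 samples was measured on a custom Affymetrix array, per the file headers. The authors deposited 1 linear intensity per probe set and array. Neither its program nor its scaling is stated in the sources used here. Control probe sets (6 of 752) were left out. Accessions matched RefSeq names (GRCm38.p6) for 450 of the 746 probe sets, which stand for 375 genes, each represented by its brightest probe set; 296 stay unnamed. Suffixes _s_at (223) and _x_at (16) mark probes shared with related transcripts. In limma 3.58.1 (R 4.3.3), 10 group means were fitted to log2(intensity + 16) of all 30 arrays, with 20 residual degrees of freedom, tested two-sided. Figures used matplotlib 3.10.9.

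Leading genes passed, had groups that do not overlap and a higher group above the overall median (7.32 on the log2 scale): the 14 highest and the 14 lowest. Further named are 23 measured genes of a written list and up to 4 members of each of 34 gene lists, plus up to 6 genes a direction in the other contrasts. Members and lists were chosen with earlier results of these data known. Itgb2 falls outside the rule and was chosen after its values were seen. Some genes are not reported here.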

Additional observations from a re-analysis of the deposited data

Results flagged for a closer look

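For 3 genes the distance of fresh B cells from CD8 cells differed from their distance from CD4 cells, by the test of fresh CD4 minus fresh CD8: Itgae (-2.55), Klrd1 (-2.23) and Cxcl10 (1.48), on the log2 scale. With scan day as a block only Itgae of these kept the call (-2.47), with Klrd1 at -1.53 and Cxcl10 at 0.88. In 9 genes the difference between B and CD8 cells changed between fresh and cultured cells, by the interaction test. It moved upwards for Itgae (3.39), Cxcr6 (3.22), Ccr9 (2.35), Itga6 (2.15), Renbp (1.62) and Selplg (1.38), and downwards for Lta (-5.03), Itgav (-2.96) and Il10ra (-1.54). The cultures hold anti-IgM for B cells and IL-2 for CD8 cells, so additions and cell type cannot be told apart. Both tests reuse fresh arrays by which the genes were chosen, so their calls are not independent of that choice.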

How the results depend on the processing

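No call among the 28 leading genes changed direction under any alternative run, and 10 of them passed under every run that gave a p-value. Of 2512 values of named genes under alternatives, 2286 counted as unchanged, 202 lost a call, 24 gained one, and no called value changed sign. Unchanged means on the same side of the threshold, except for 113 values of the pair of arrays of the shared scan period. Many of the named genes had no call in the main fit and count as unchanged while they stay uncalled. The 2286 therefore does not measure how stable the calls are. That pair gave no p-value, and its values counted as unchanged unless a called value changed sign. Fewer of the probe sets passed between fresh B and fresh CD8 cells, against 61, in a fit on the 6 arrays (26) or the 9 fresh arrays (24). Both fits have fewer residual degrees of freedom, whose part in the drop was not tested. Fewer also passed with a block on scan day (17) or scan period (39), or without _s_at and _x_at probe sets (37, of 507 tested). Leaving out 1 array gave 38 to 55, lowest without CD8 array B. With the title letter as a random replicate block 60 passed, and St8sia1 alone of the named genes lost its call. With fixed letter blocks the fresh B minus fresh CD8 difference could not be estimated. Letters A, B and C share no group of the series with the letters of the B arrays. More than 61 passed with the 3'/5' ratio of beta-actin and Gapdh as a covariate (73, all of the 61 among them). The same held with a pseudocount of 64 (74), after quantile normalization (66) and without the dimmest 40% of probe sets (64, of 448 tested). Added after seeing the data, a fit without the pair of arrays of the shared scan period gave 43.

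For fresh CD4 minus fresh CD8, 5 shared calls became 3 with a pseudocount of 1, 2 after median centring, 3 after quantile normalization and 2 in the scan-period block, and 2 to 6 without 1 array, lower than 5 without CD4 array B or C (3) or CD8 array B (2). With the replicate block 7 passed. The interaction gave 63 calls, 38 to 72 without 1 array, with 38 lacking fresh CD8 array B and 41 lacking fresh B array E, and 70 with the replicate block. Centring each array moved its split to 8 upwards and 42 downwards, from 23 and 40. For these changes the cause was not tested. Dim genes, such as Il12a and St8sia1, are limited by signal over background, which was not measured here.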
